A study of Mus musculus with 6 samples.

Results

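The 48 genes described here encode the enzymes and mitochondrial carriers of the urea cycle and of amino acid breakdown. They were taken by symbol from a table of 52459 gene rows, and all 48 symbols were found. RNA had been sequenced from 6 samples of mouse liver tumour, all of the genotype MYC-LAP-tTA. In 3 samples MYC had been inactivated for 4 days (labelled MYC-Off Day 4, here MYC-Off) and in 3 samples MYC was active (MYC-On). In this model a tetracycline-controlled transactivator under a liver promoter drives the MYC transgene, so the switch acts in cells that use that promoter. Strain, sex, age and the agent that switched MYC off are not stated in the labels used here. Nor do they say that replicates are different mice, so each p-value reflects the variation among these libraries alone, part of which can be technical.

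Amino acids that are not used for protein lose their nitrogen and pass their carbon skeletons to sugar, ketone or fat metabolism, and the liver is the main site of both steps. The nitrogen arrives as ammonia and aspartate and leaves as urea through a cycle shared between the mitochondrion and the cytosol. Each amino acid has its own chain of enzymes, and many of these enzymes are made almost only in mature hepatocytes and are raised by fasting hormones such as glucagon and glucocorticoids.

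Myc was measured as a check of the labels, and stood at 74.8, 10.2 and 18.7 CPM in MYC-Off replicates 1, 2 and 3, against 779, 1018 and 854 CPM in MYC-On. Where 3 values stand together they follow the replicate numbers, and CPM are counts scaled by library size and the TMM factor. Libraries held between 16292718 and 19265623 assigned reads, so that 1 read was worth between 0.0409 and 0.0768 CPM on this scale. The hepatocyte markers of these tumours were present in all 6 libraries, with Alb at 59067, 105526 and 203650.0 CPM in MYC-Off and 2646, 828 and 1883 CPM in MYC-On.

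Most of the 48 genes were higher after 4 days without MYC. All 48 passed the filter on low counts, of which Acmsd alone had fewer than 10 reads in each MYC-On library. Ido2 had 16, 5 and 3 reads in MYC-On. Both genes passed the filter only through their MYC-Off libraries, where they were high, and both are included in the counts below. In edgeR's quasi-likelihood test at an adjusted p of 0.05, 29 of the 48 rose, 1 (Amt) fell and 18 were not called. Of all 14130 genes tested, 29.9% were called higher, 22.8% lower and 52.7% in either direction. The median log2 fold change (MYC-Off minus MYC-On) of the 48 was 1.82, beside 0.18 over all tested genes, and 45 of the 48 had a fold change above 0. With library size as the only scaling, which moved the median of all tested genes by -0.74, 23 of the 48 rose, 3 fell and the median was 0.98. That setting turned 8 of the 48 fold changes below 0, none of them among the called genes, and lowered the share of higher calls among all genes to 32.3%, against 56.7% with TMM. In RNA of whole tissue, a change in the number of hepatocyte-like cells and a change in RNA per cell cannot be told apart.

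**Figure D1:**
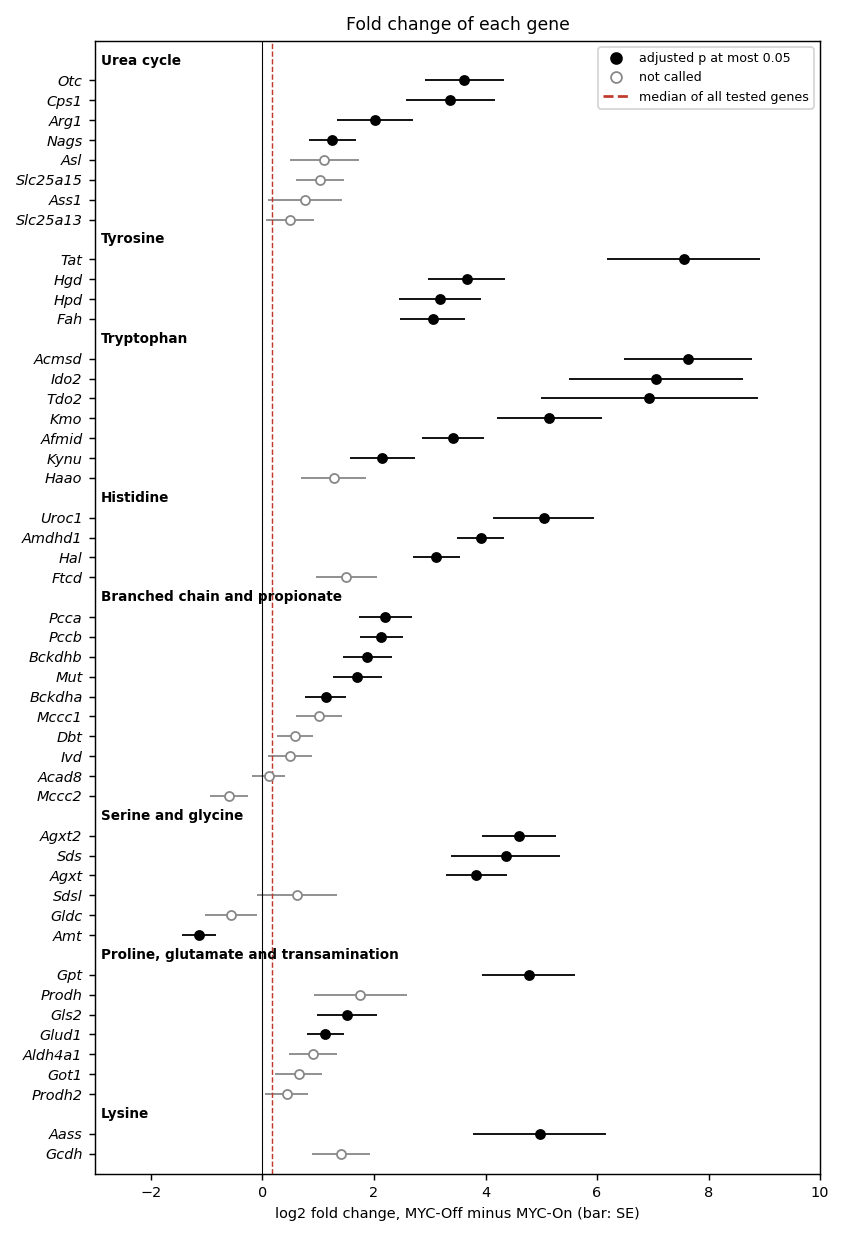
Log2 fold change (MYC-Off minus MYC-On, bars are SE) of the 48 genes by pathway, from edgeR with 3 libraries in each group. Filled points passed an adjusted p of 0.05: 29 lie to the right of 0 and 1, Amt, to the left, and the dashed line marks the median of all tested genes at 0.18.

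The increase was uneven over the MYC-Off libraries. Replicate 1 held the lowest MYC-Off value of 46 of the 48 genes and replicate 2 the highest value of 40. In replicate 1, 22 of the 48 lay below the highest MYC-On library, against 4 in replicate 2 and 3 in replicate 3. The median log2 difference of the 48 from the MYC-On mean was 0.55, 2.56 and 1.85 in MYC-Off and 0.23, -0.33 and 0.11 in MYC-On. MYC-On replicate 2 was the lowest MYC-On library for 38 of the 48. The groups did not overlap for 26 genes that were higher in MYC-Off and for 1 that was lower, beside 33.2% and 29.8% of all tested genes. Without MYC-Off replicate 1, 38 of the 48 rose, beside 27.9% of all genes tested in that fit. Without MYC-On replicate 2, 17 rose, beside 18.7% of all genes tested there, and 0 fell, with Amt at -1.12 (edgeR adjusted p = 0.0588).

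**Figure D2:**
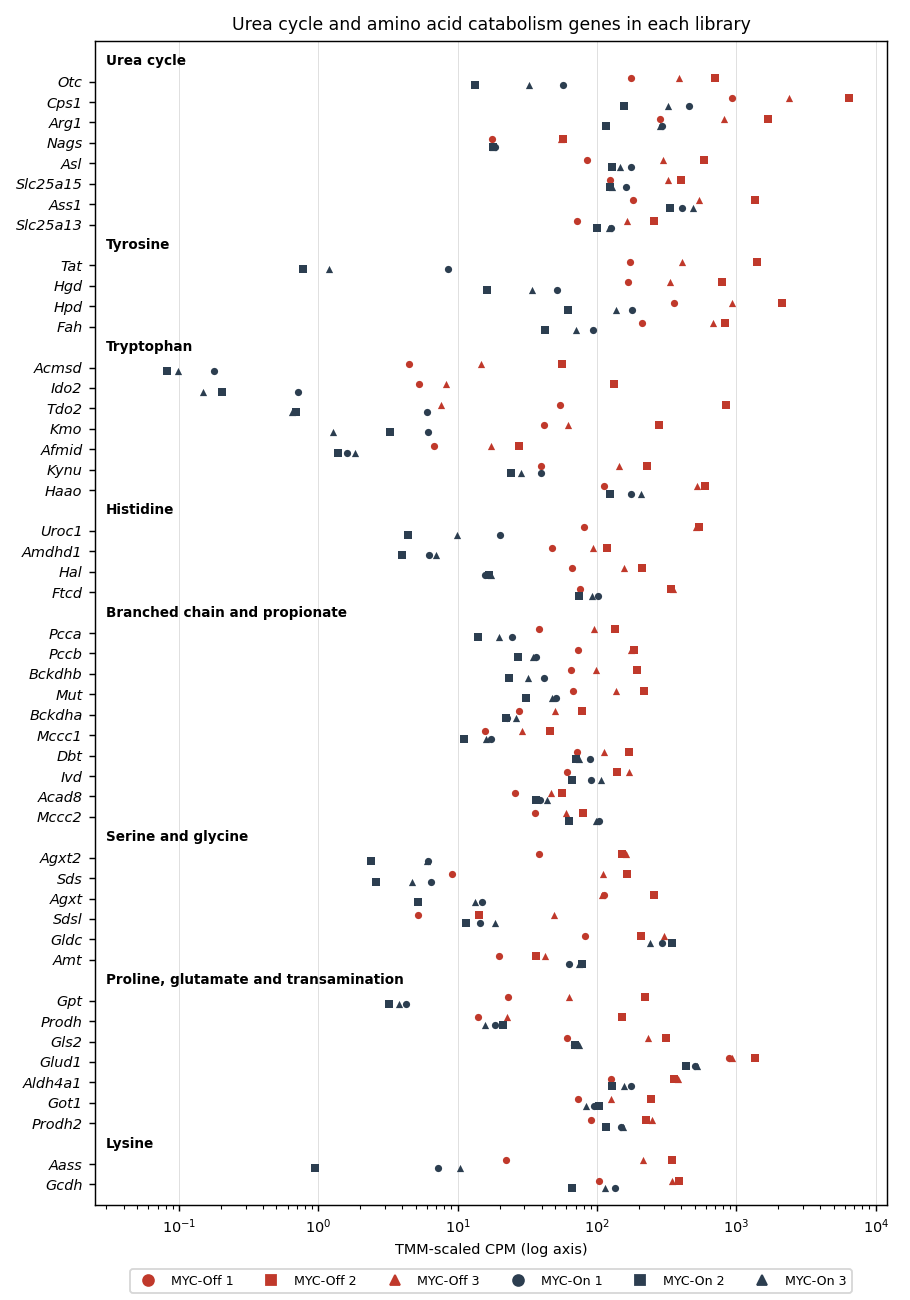
TMM-scaled CPM (log axis) of the 48 genes in each of the 6 libraries, MYC-Off in red above MYC-On in dark blue, with a marker shape for each replicate number. For most genes MYC-Off replicate 2 (red square) lies farthest right and MYC-Off replicate 1 (red circle) nearest to the MYC-On libraries.

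In the urea cycle 4 of 8 genes rose and 0 fell (median of the 8, 1.18). That count was 6 without MYC-Off replicate 1, 2 without MYC-Off replicate 2 or 3 or MYC-On replicate 1, and 1 (Otc) without MYC-On replicate 2 or 3. Of all genes tested in these fits, between 18.7% and 29.3% were called higher. Within the cycle, the largest changes were those of Otc and Cps1. Carbamoyl phosphate synthetase, Cps1 (chromosome 1, 67123026 to 67231259, GRCm38), traps ammonia and is the entry step. It stood at 931, 6366 and 2368 CPM in MYC-Off, against 459, 155 and 321 CPM in MYC-On (log2 fold change 3.37, SE 0.80, edgeR adjusted p = 0.0115). Ornithine transcarbamylase, Otc (chromosome X, 10252305 to 10321024), uses its product to form citrulline and had 175, 702 and 389.9 CPM in MYC-Off, against 57.3, 13.4 and 32.4 CPM in MYC-On (log2 fold change 3.62, SE 0.71, edgeR adjusted p = 0.00553). For both genes every MYC-Off library was above every MYC-On library, with replicate 2 the highest. Nags, which makes the activator of Cps1, rose to 17.7, 57.3 and 54.8 CPM in MYC-Off, against 18.6, 17.9 and 17.9 CPM in MYC-On (log2 fold change 1.25, SE 0.43, edgeR adjusted p = 0.0415), with replicate 1 just below all MYC-On libraries and Gm11586 on the other strand over 15.6% of its exon bases. Arginase, Arg1 (chromosome 10, 24915221 to 24927484), which releases urea, rose to 930.5 ± 712 CPM in MYC-Off, against 229.6 ± 98.0 CPM in MYC-On (SD, n = 3 each; log2 fold change 2.02, SE 0.69, edgeR adjusted p = 0.041), and its groups overlapped.

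The other 4 urea cycle genes were not called. Argininosuccinate synthetase, Ass1, which joins citrulline to aspartate, had 180.4, 1366 and 538 CPM in MYC-Off and 406, 331 and 488 CPM in MYC-On (log2 fold change 0.77, SE 0.67, edgeR adjusted p = 0.361). It was below all MYC-On libraries in MYC-Off replicate 1 and above them in replicates 2 and 3, and its fold change was -0.30 without MYC-Off replicate 2 and -0.10 with library size only. Its partner argininosuccinate lyase, Asl, had 84.5, 586 and 297 CPM in MYC-Off and 174, 128 and 147 CPM in MYC-On (log2 fold change 1.11, SE 0.62, edgeR adjusted p = 0.167). The ornithine carrier Slc25a15 had a log2 fold change of 1.03 (SE 0.43) and the aspartate-glutamate carrier Slc25a13 one of 0.50 (SE 0.43), which was -0.33 with library size only. The edgeR adjusted p was 0.0809 for Slc25a15 and 0.36 for Slc25a13. Without MYC-Off replicate 1, Asl (1.42, edgeR adjusted p = 0.0109) and Slc25a15 (1.25, 0.00477) were called higher as well. Arg1 and Nags kept their calls only in that fit among those that left out a library (otherwise edgeR adjusted p = 0.0613 to 0.143 and 0.114 to 0.133), and both lost them with library size only. Cps1 was not called without MYC-On replicate 2 (3.00, edgeR adjusted p = 0.0552) or 3 (3.34, 0.0547).

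Ratios within a library do not depend on scaling, and here they are given per kilobase of exon, for pairs chosen after the values were seen. Cps1 over Ass1 was 2.24, 2.03 and 1.91 in MYC-Off and 0.492, 0.203 and 0.286 in MYC-On. The MYC-Off libraries lay close together in this ratio, although Cps1 itself differed several-fold between them. Otc over Ass1 was 0.551, 0.292 and 0.413 in MYC-Off and 0.0803, 0.0230 and 0.0378 in MYC-On, again without overlap. On the same length-scaled level, Cps1 had the highest mean of the 48 genes in MYC-Off, at 580.0 ± 507 CPM per kilobase, and Ass1 had the highest in MYC-On, at 169 ± 32.5. Within MYC-Off, Cps1 was highest in replicate 2 only. Glud1 was above it in replicate 1 (210 against 168 CPM per kilobase) and Hpd in replicate 3 (440 against 426). In MYC-On, Cps1 stood at 56.1 ± 27.4 CPM per kilobase, and in MYC-Off Ass1 stood at 288 ± 252 (SD, n = 3 each), so that their order differed between the groups.

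Promoter windows of 300 bases, from 250 before to 50 after the start (RefSeq, GRCm38.p6), were found for 37 of the 48 genes in 41 windows. They were searched on both strands for 6 short motifs. The E-box that MYC and MAX can bind is CACGTG. The C/EBP type was written as TTGCNNAA. The HNF4 type was written as CAAAGTCCA and found at 1 site, which lies in both of the overlapping windows of Agxt2, and it occurred in 0.475% of all windows. The cyclic AMP response element, TGACGTCA, was found in 0 of the 41 windows, beside 1.79% of all windows. The glucocorticoid receptor type was written as ACANNNTGT. The TATA box was written as TATAAA and found in 6 windows (14.6%, beside 13.6%), of which the 2 of Agxt2 share 1 site.

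CACGTG occurred in 4 of the 41 windows (9.76%), beside 7.15% of 32851 mouse windows, and the 4 genes were Ass1, Slc25a13, Slc25a15 and Mccc2. None of these 4 was called, with log2 fold changes of 0.77, 0.50, 1.03 and -0.60. Of the 48 genes 18 were not called, and 52.7% of all tested genes were called in either direction. Slc25a15 was called higher without MYC-Off replicate 1 (edgeR adjusted p = 0.00477) and Mccc2 lower with library size only (edgeR adjusted p = 0.00502). A relation between the letters and the calls was not tested. A match is a description of the letters and not a binding site. The windows of the 3 urea cycle genes below are shown because they hold the E-box letters, printed in capitals. Slc25a15 has another window, chr8:22398572-22398871, that does not hold them and is not shown.
Ass1 (chr2:31470020-31470319, plus strand): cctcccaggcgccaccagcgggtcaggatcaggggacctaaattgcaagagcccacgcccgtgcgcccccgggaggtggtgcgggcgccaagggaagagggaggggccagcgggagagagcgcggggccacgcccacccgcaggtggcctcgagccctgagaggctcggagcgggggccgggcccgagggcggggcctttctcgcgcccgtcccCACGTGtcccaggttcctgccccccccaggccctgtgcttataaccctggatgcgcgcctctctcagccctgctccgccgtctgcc
Slc25a13 (chr6:6217124-6217423, minus strand): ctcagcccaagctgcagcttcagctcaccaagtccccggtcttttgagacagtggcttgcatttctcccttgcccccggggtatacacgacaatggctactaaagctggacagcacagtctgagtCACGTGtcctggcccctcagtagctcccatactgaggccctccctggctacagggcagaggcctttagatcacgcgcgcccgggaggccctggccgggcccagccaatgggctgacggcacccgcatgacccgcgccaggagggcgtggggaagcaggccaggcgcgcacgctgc
Slc25a15 (chr8:22398228-22398527, minus strand): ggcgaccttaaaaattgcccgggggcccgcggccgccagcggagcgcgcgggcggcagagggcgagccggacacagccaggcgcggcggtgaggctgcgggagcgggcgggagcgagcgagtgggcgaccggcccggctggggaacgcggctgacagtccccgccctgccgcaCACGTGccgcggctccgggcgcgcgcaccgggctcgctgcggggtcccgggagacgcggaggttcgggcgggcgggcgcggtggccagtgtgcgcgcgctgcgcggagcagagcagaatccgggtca

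All 4 tyrosine genes rose, with a median log2 fold change of 3.42. Tyrosine aminotransferase, Tat (chromosome 8, 109990437 to 109999803), catalyses the rate-limiting step and is a textbook target of glucocorticoids. It had 172, 1396 and 406 CPM in MYC-Off, against 8.55, 0.778 and 1.18 CPM in MYC-On (log2 fold change 7.55, SE 1.37, edgeR adjusted p = 0.00423). Within MYC-On it was highest in replicate 1. The dioxygenases that follow also rose. Hpd had 354, 2133 and 936 CPM in MYC-Off, against 178, 62.2 and 137 CPM in MYC-On (log2 fold change 3.18, SE 0.74, edgeR adjusted p = 0.0104). Hgd had 166, 787 and 334 CPM in MYC-Off, against 51.7, 16.2 and 34.0 CPM in MYC-On (log2 fold change 3.66, SE 0.70, edgeR adjusted p = 0.00509). Fah, which splits the last intermediate and is the gene lost in hereditary tyrosinaemia, had 209.9, 829.9 and 674 CPM in MYC-Off, against 92.9, 42.5 and 70.6 CPM in MYC-On (log2 fold change 3.06, SE 0.58, edgeR adjusted p = 0.00505). In each of the 4 genes all MYC-Off libraries lay above all MYC-On libraries, and replicate 1 was the lowest of MYC-Off. Leaving out MYC-On replicate 2 ended the call of Hpd (2.81, edgeR adjusted p = 0.051).

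TTGCNNAA was found in the windows of 6 of the 37 genes (Aass, Agxt2, Gcdh, Hal, Hgd and Prodh2), which is 14.6% of the 41 windows beside 10.8% of all windows. Hgd and Gcdh, which was not called, hold this motif on either side of the start. The window of Hgd is printed. The capitals also mark TATAAA on the reverse strand, beginning 139 bases before the start.
Hgd (chr16:37579903-37580202, plus strand): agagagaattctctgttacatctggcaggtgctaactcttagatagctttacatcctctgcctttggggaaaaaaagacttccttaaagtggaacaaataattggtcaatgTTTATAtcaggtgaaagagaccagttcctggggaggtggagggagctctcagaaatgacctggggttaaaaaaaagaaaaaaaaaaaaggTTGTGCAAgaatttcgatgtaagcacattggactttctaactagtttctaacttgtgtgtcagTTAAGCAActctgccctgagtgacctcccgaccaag

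Tryptophan breakdown had the highest median log2 fold change of the 8 pathways, 5.15, and 6 of its 7 genes rose. Without MYC-Off replicate 2 the median was 3.65. In MYC-Off replicate 3 the tryptophan median difference from the MYC-On mean was 3.36. Those of lysine (3.70), histidine (3.64) and tyrosine (3.41) were higher there. Tdo2 (chromosome 3, 81957090 to 81976202), the hepatic dioxygenase that opens the tryptophan ring, had 54.5, 836 and 7.53 CPM in MYC-Off, against 5.97, 0.696 and 0.641 CPM in MYC-On (log2 fold change 6.94, SE 1.95, edgeR adjusted p = 0.021). Replicate 2 stood far above the rest, and replicate 3 was close to the highest MYC-On library. Without MYC-Off replicate 2 its fold change was 3.65 (edgeR adjusted p = 0.0495). Its call was lost without MYC-On replicate 2 (6.44, edgeR adjusted p = 0.0852) or 3 (6.44, 0.078). Ido2, a second enzyme for the same reaction, had 5.27, 132 and 8.30 CPM in MYC-Off, against 0.713, 0.205 and 0.148 CPM in MYC-On (log2 fold change 7.06, SE 1.55, edgeR adjusted p = 0.00855). It resembled Tdo2 in that replicate 2 held nearly all of its MYC-Off reads, and without that library its fold change was 4.13.

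Of the 5 other tryptophan enzymes 4 rose. The kynurenine hydroxylase Kmo (chromosome 1, 175620381 to 175662116) had 41.3, 277 and 62.1 CPM in MYC-Off, against 6.15, 3.27 and 1.28 CPM in MYC-On (log2 fold change 5.15, SE 0.95, edgeR adjusted p = 0.00443). Acmsd, which steers the chain away from NAD synthesis, had 81, 734 and 190 reads in MYC-Off, against 4, 2 and 2 reads in MYC-On (log2 fold change 7.63, SE 1.15, edgeR adjusted p = 0.00224). This was the largest log2 fold change of the 48 in the fit of all 6 libraries, on few MYC-On reads. That of Tat was larger without MYC-Off replicate 2 (Tat 6.25, Acmsd 6.12) and with replicate number as a block (Tat 7.979, Acmsd 7.055). Without MYC-On replicate 1, those of Tat (9.33), Tdo2 (8.737) and Ido2 (7.978) were larger than that of Acmsd (7.966). Afmid had 6.76, 27.7 and 17.4 CPM in MYC-Off, against 1.60, 1.39 and 1.82 CPM in MYC-On (log2 fold change 3.42, SE 0.56, edgeR adjusted p = 0.00291). Other genes overlap 46.6% of the exon bases of Afmid, among them the cell cycle gene Tk1 on the other strand, and reads there cannot be told apart without a known strand setting. Kynu, the kynureninase, had 39.5, 227 and 142 CPM in MYC-Off, against 39.4, 24.1 and 28.7 CPM in MYC-On (log2 fold change 2.15, SE 0.59, edgeR adjusted p = 0.0187), with replicate 1 level with the highest MYC-On library. Its call was lost without MYC-Off replicate 2 (1.44, edgeR adjusted p = 0.0531), MYC-On replicate 2 (0.0845) or MYC-On replicate 3 (0.0745). Haao, the dioxygenase that leads to quinolinate, was not called, with 113, 589.6 and 523 CPM in MYC-Off and 176, 123 and 208 CPM in MYC-On (log2 fold change 1.27, SE 0.59, edgeR adjusted p = 0.106). It was called without MYC-Off replicate 1 (1.57, edgeR adjusted p = 0.00415).

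Of the 4 histidine genes 3 rose, with a median of 3.52 over the 4. Histidine ammonia-lyase, Hal (chromosome 10, 93488768 to 93519304), had 66.4, 209 and 157 CPM in MYC-Off, against 15.7, 16.8 and 17.2 CPM in MYC-On (log2 fold change 3.12, SE 0.42, edgeR adjusted p = 0.00165). The MYC-On libraries agreed closely and all MYC-Off libraries stood above them. Urocanate hydratase, Uroc1, had 81.0, 539 and 513 CPM in MYC-Off, against 20.1, 4.42 and 9.81 CPM in MYC-On (log2 fold change 5.04, SE 0.90, edgeR adjusted p = 0.00403). Amdhd1, the imidazolonepropionase, had 47.7, 118 and 93.2 CPM in MYC-Off, against 6.24, 3.97 and 7.003 CPM in MYC-On (log2 fold change 3.91, SE 0.42, edgeR adjusted p = 0.000967), the smallest adjusted p of the 48. Ftcd, which passes the last carbon to folate, was not called, at 74.9, 338 and 349 CPM in MYC-Off and 101, 74.5 and 92.6 CPM in MYC-On (log2 fold change 1.51, SE 0.55, edgeR adjusted p = 0.0513). Its MYC-Off replicate 1 lay inside the MYC-On range, and it was called without that library (1.79, edgeR adjusted p = 0.00101), with the stricter count filter (0.0481) and with DESeq2's test (DESeq2 adjusted p = 0.0213). The Hal window is printed as the one of the 37 genes that held the letters of C/EBP type, glucocorticoid receptor type and TATAAA together. The last 2 share a base, begin 36 and 28 bases before the start, and are in capitals with the C/EBP letters that begin 150 bases before it. The glucocorticoid type occurred in 4 of the 41 windows (9.76%), those of Bckdhb, Hal, Ivd and Tdo2, beside 6.85% of all windows. The Bckdhb match lies in the window chr9:83948531-83948830, and its other window, chr9:83924887-83925186, holds none.
Hal (chr10:93488518-93488817, plus strand): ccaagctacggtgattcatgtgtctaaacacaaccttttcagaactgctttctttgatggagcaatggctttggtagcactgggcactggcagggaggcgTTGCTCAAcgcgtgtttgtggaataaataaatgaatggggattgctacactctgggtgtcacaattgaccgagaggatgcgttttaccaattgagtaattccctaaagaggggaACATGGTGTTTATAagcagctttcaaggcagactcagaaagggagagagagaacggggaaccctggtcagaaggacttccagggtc

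Of the 10 branched chain and propionate genes 5 rose and 0 fell, with a median of 1.08. Without MYC-On replicate 2 or 3, 2 and 3 of the 10 were called higher, beside 18.7% and 19.2% of all genes tested. The entry complex, branched chain ketoacid dehydrogenase, is built from Bckdha, Bckdhb and Dbt. Bckdhb had 64.6, 193 and 97.9 CPM in MYC-Off, against 41.4, 23.2 and 31.8 CPM in MYC-On (log2 fold change 1.88, SE 0.44, edgeR adjusted p = 0.0105). Bckdha had 27.5, 78.3 and 50 CPM in MYC-Off, against 22.6, 22.1 and 26.3 CPM in MYC-On (log2 fold change 1.13, SE 0.37, edgeR adjusted p = 0.037), though B3gnt8 on the other strand overlaps 61.7% of its exon bases. Dbt had 72.2, 169 and 113 CPM in MYC-Off and 89.5, 71.0 and 74.7 CPM in MYC-On and was not called (log2 fold change 0.59, SE 0.33, edgeR adjusted p = 0.165). Bckdha and Bckdhb were thus higher in each MYC-Off library, while Dbt in MYC-Off replicate 1 lay inside the MYC-On range.

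Of the propionate genes, both subunits of propionyl-CoA carboxylase and methylmalonyl-CoA mutase rose. Pcca had 38.2, 134 and 94.6 CPM in MYC-Off, against 24.6, 13.9 and 19.6 CPM in MYC-On (log2 fold change 2.20, SE 0.47, edgeR adjusted p = 0.0078). Pccb (chromosome 9, 100982032 to 101034898) had 72.7, 185 and 175 CPM in MYC-Off, against 36.4, 27.1 and 34.9 CPM in MYC-On (log2 fold change 2.13, SE 0.38, edgeR adjusted p = 0.00395). Mut had 67.5, 216 and 136 CPM in MYC-Off, against 50.6, 31.0 and 47.5 CPM in MYC-On (log2 fold change 1.70, SE 0.44, edgeR adjusted p = 0.0149). None of these 3 overlapped between the groups. The leucine enzymes Ivd, Mccc1 and Mccc2 were not called, with log2 fold changes of 0.49, 1.02 and -0.60 (SE 0.40, 0.41 and 0.34). Nor was the valine enzyme Acad8, at 0.11 (SE 0.30). Mccc2 was the one gene of the 10 with a negative value, at 35.8, 78.6 and 60.1 CPM in MYC-Off and 104, 63.3 and 97.6 CPM in MYC-On, and with library size only it was called lower (-1.40, edgeR adjusted p = 0.00502). With that scaling Dbt (-0.21), Ivd (-0.33) and Acad8 (-0.69) fell below 0 without a call, and Bckdha and Mut were no longer called. Among fits without a library, Bckdha kept its call only without MYC-Off replicate 1 (otherwise edgeR adjusted p = 0.0652 to 0.126), where Dbt (0.70) and Mccc1 (1.18) were called higher. Bckdhb was not called without MYC-On replicate 2 (edgeR adjusted p = 0.0557), nor Mut without MYC-On replicate 2 (0.0723) or 3 (0.0548).

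The regulators of the branched chain complex, from the list of other breakdown enzymes, moved in opposite directions. The kinase Bckdk, which switches the complex off, fell to 43.8, 20.8 and 22.0 CPM in MYC-Off, against 108, 93.9 and 116 CPM in MYC-On (log2 fold change -1.87, SE 0.33, edgeR adjusted p = 0.00389). The phosphatase Ppm1k, which switches it on, rose to 36.6, 57.9 and 27.0 CPM in MYC-Off, against 12.7, 4.99 and 9.37 CPM in MYC-On (log2 fold change 2.16, SE 0.43, edgeR adjusted p = 0.00609). Neither gene overlapped between the groups. Per kilobase, Ppm1k over Bckdk was 0.514, 1.71 and 0.750 in MYC-Off and 0.0724, 0.0326 and 0.0494 in MYC-On. Dld, the subunit that this complex shares with glycine cleavage and other dehydrogenases, fell to 106, 169.9 and 134 CPM in MYC-Off, against 286, 186 and 332 CPM in MYC-On (log2 fold change -0.97, SE 0.32, edgeR adjusted p = 0.0361), and its call was lost without MYC-On replicate 1 (-0.97, edgeR adjusted p = 0.0992) or 3 (-0.84, 0.108).

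Serine and glycine enzymes went both ways, 3 of 6 being higher and 1 lower. Serine dehydratase, Sds (chromosome 5, 120476526 to 120483932), had 9.12, 163 and 109.7 CPM in MYC-Off, against 6.46, 2.58 and 4.68 CPM in MYC-On (log2 fold change 4.36, SE 0.98, edgeR adjusted p = 0.00924). Its replicate 1 was just above the MYC-On range, other genes including Plbd2 overlap 29.6% of its exon bases, and the call was lost without MYC-On replicate 2 (4.03, edgeR adjusted p = 0.0501). Its paralog Sdsl had 5.22, 14.3 and 49.1 CPM in MYC-Off and 14.5, 11.4 and 18.6 CPM in MYC-On and was not called (log2 fold change 0.62, SE 0.72, edgeR adjusted p = 0.493); its fold change was -0.73 without MYC-Off replicate 3 and -0.25 with library size only. Sds over Sdsl, per kilobase, was 1.54, 10.1 and 1.97 in MYC-Off and 0.394, 0.200 and 0.222 in MYC-On. The paralogs thus stood in opposite order in the groups. The glyoxylate aminotransferases rose. Agxt (chromosome 1, 93135240 to 93145421), the peroxisomal enzyme lost in primary hyperoxaluria, had 112, 256 and 108 CPM in MYC-Off, against 14.9, 5.16 and 13.3 CPM in MYC-On (log2 fold change 3.83, SE 0.55, edgeR adjusted p = 0.00189). Agxt2, the mitochondrial one, had 38.3, 151 and 162 CPM in MYC-Off, against 6.10, 2.37 and 5.97 CPM in MYC-On (log2 fold change 4.60, SE 0.67, edgeR adjusted p = 0.00197).

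Both glycine cleavage genes among the 48 had fold changes below 0, and 1 of them was called. Amt (chromosome 9, 108296853 to 108302302), its aminomethyltransferase, fell to 19.8, 36.3 and 42.1 CPM in MYC-Off, against 62.9, 78.2 and 74.2 CPM in MYC-On (log2 fold change -1.13, SE 0.31, edgeR adjusted p = 0.0184). All MYC-Off libraries were below all MYC-On libraries, and the call was lost without MYC-On replicate 2 (edgeR adjusted p = 0.0588) or 3 (0.0535), at -1.12 and -1.16. Gldc, the glycine decarboxylase of the same system, had 81.8, 206 and 302 CPM in MYC-Off and 290.3, 345 and 239 CPM in MYC-On and was not called (log2 fold change -0.57, SE 0.47, edgeR adjusted p = 0.333). With library size only Gldc was called lower (-1.42, edgeR adjusted p = 0.0159).

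Among the proline, glutamate and transamination genes 3 of 7 rose and 0 fell. That count was 5 without MYC-Off replicate 1 and 1 (Gpt) without MYC-Off replicate 2 or any one MYC-On library. Between 18.7% and 27.9% of all genes tested were called higher in those fits. Alanine aminotransferase, Gpt (chromosome 15, 76695716 to 76699686), had 23.1, 222 and 62.9 CPM in MYC-Off, against 4.28, 3.19 and 3.80 CPM in MYC-On (log2 fold change 4.77, SE 0.83, edgeR adjusted p = 0.00372). Glutamate dehydrogenase, Glud1 (chromosome 14, 34310727 to 34345265), which frees ammonia from glutamate, had 884, 1352 and 930.3 CPM in MYC-Off, against 500.2, 431 and 522 CPM in MYC-On (log2 fold change 1.12, SE 0.33, edgeR adjusted p = 0.0247). Both were higher in every MYC-Off library, and Glud1 was already abundant in MYC-On. Liver glutaminase, Gls2, had 60.4, 313 and 231 CPM in MYC-Off, against 68.5, 69.6 and 73.9 CPM in MYC-On (log2 fold change 1.51, SE 0.54, edgeR adjusted p = 0.0479), with replicate 1 below all MYC-On libraries. Its call was kept only without MYC-Off replicate 1 among fits without a library (otherwise edgeR adjusted p = 0.102 to 0.157) and was lost with DESeq2 size factors (0.0525) and library size only (0.224). Glud1 was called without MYC-Off replicate 1 or 3 and not in the other 4 such fits (edgeR adjusted p = 0.0564 to 0.118) or with library size only (0.309). The proline oxidase Prodh had 14.1, 149.8 and 22.7 CPM in MYC-Off and 18.4, 21.1 and 15.7 CPM in MYC-On (log2 fold change 1.76, SE 0.83, edgeR adjusted p = 0.113). It was far higher in replicate 2 than in the others, and its fold change was -0.092 without that library and 2.09 (edgeR adjusted p = 0.045) without MYC-Off replicate 1. The hydroxyproline oxidase Prodh2 (0.43, SE 0.39), the dehydrogenase Aldh4a1 shared by both chains (0.91, SE 0.43, with Gm21969 on the same strand over 32.5% of its exon bases) and the cytosolic aspartate aminotransferase Got1 (0.65, SE 0.42) were not called. Of these, Aldh4a1 was called without MYC-Off replicate 1 (1.12, edgeR adjusted p = 0.00684), and Prodh2 and Got1 were below 0 with library size only (-0.39 and -0.18).

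Of the lysine genes, Aass, which opens lysine breakdown, had 22.1, 344 and 214 CPM in MYC-Off, against 7.26, 0.941 and 10.4 CPM in MYC-On (log2 fold change 4.97, SE 1.19, edgeR adjusted p = 0.0118). Gcdh, the glutaryl-CoA dehydrogenase where lysine and tryptophan carbon meet, had 103, 385 and 342 CPM in MYC-Off and 133, 66.5 and 114 CPM in MYC-On and was not called (log2 fold change 1.40, SE 0.52, edgeR adjusted p = 0.0557). In replicate 1 Gcdh lay inside the MYC-On range, and it was called without that library (1.65, edgeR adjusted p = 0.00547) and by DESeq2 (DESeq2 adjusted p = 0.0266).

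The list of other breakdown enzymes held 36 genes, of which 35 were tested. Of these, 13 rose (37.1%, beside 29.9% of all tested genes) and 4 fell (11.4%, beside 22.8%), with a median of 0.93. The 3 with the smallest adjusted p among those that rose were Cdo1, Aadat and Ppm1k. Cdo1, the cysteine dioxygenase, had 440.0, 1012 and 1146 CPM in MYC-Off, against 95.1, 50.9 and 62.4 CPM in MYC-On (log2 fold change 3.64, SE 0.50, edgeR adjusted p = 0.00165). Aadat, the aminoadipate and kynurenine aminotransferase, had 13.6, 125 and 59.9 CPM in MYC-Off, against 0.534, 0.0819 and 0.0986 CPM in MYC-On (log2 fold change 8.08, SE 1.11, edgeR adjusted p = 0.0017), with 12, 2 and 2 reads in MYC-On. In both genes all MYC-Off libraries lay above all MYC-On libraries. Besides Bckdk and Dld, Dao, the D-amino acid oxidase, was among the 3 lowest by adjusted p, at 10, 2 and 14 reads in MYC-Off and 61, 78 and 59 reads in MYC-On (log2 fold change -2.30, SE 0.66, edgeR adjusted p = 0.0221), and without any one MYC-On library it was not called (edgeR adjusted p = 0.0644 to 0.0745). The number that rose was 7 without MYC-On replicate 2, 8 without MYC-On replicate 3 and 19 without MYC-Off replicate 1. Across those same fits, 18.7%, 19.2% and 27.9% of all genes tested were called higher.

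Counterpart enzymes, which use the same substrates for synthesis or are isozymes of other tissues, fell more often than they rose. Of 17 listed 15 were tested, with a median of -0.71. Of these 15, 7 fell (46.7%, beside 22.8% of all tested genes) and 3 rose (20%, beside 29.9%). Cad, which makes carbamoyl phosphate for pyrimidines rather than urea, fell to 32.3, 21.1 and 24.3 CPM in MYC-Off, against 205, 323 and 175 CPM in MYC-On (log2 fold change -3.18, SE 0.33, edgeR adjusted p = 0.000903). Odc1, which turns ornithine to polyamines, fell to 30.3, 24.5 and 18.6 CPM in MYC-Off, against 137, 196 and 159 CPM in MYC-On (log2 fold change -2.74, SE 0.28, edgeR adjusted p = 0.000874). Asparagine synthetase, Asns, fell to 63.4, 52.3 and 95.2 CPM in MYC-Off, against 262, 238 and 242 CPM in MYC-On (log2 fold change -1.81, SE 0.29, edgeR adjusted p = 0.00264). In all 3 the groups were apart in every library. Those that rose were Bcat2 (log2 fold change 1.48, SE 0.26, edgeR adjusted p = 0.00384), Arg2 (log2 fold change 3.89, SE 1.00, edgeR adjusted p = 0.0151) and Glul (log2 fold change 1.14, SE 0.32, edgeR adjusted p = 0.0205). Arg2, the arginase isozyme outside the urea cycle, stood at 6.04, 1.22 and 0.999 CPM in MYC-Off and 0.312, 0.0409 and 0.197 CPM in MYC-On. These are few reads in MYC-On, where 1 read was worth between 0.0409 and 0.0493 CPM. Genes on the other strand, Vti1b among them, cover 28.1% of the exon bases of Arg2. Bcat2 and Glul lost their calls with library size only, Glul without MYC-Off replicate 2 or any one MYC-On library (0.90 to 1.28 over the fits without a library), and Arg2 without MYC-On replicate 2 (3.35) or 3 (3.88).

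Cps1 over Cad, per kilobase, was 42.5, 444 and 144 in MYC-Off and 3.29, 0.707 and 2.70 in MYC-On. The lowest MYC-Off library was above the highest MYC-On one. Prodh over Aldh18a1, proline breakdown over proline synthesis, was 0.296, 16.8 and 1.21 in MYC-Off and 0.0606, 0.0684 and 0.0562 in MYC-On. Prodh itself was not called. In MYC-Off replicate 1 it stood at 14.1 CPM, below all MYC-On libraries (18.4, 21.1 and 15.7 CPM). The higher ratio in that library thus reflects a lower level of Aldh18a1 and not a higher one of Prodh. Arg1 over Arg2 was 30.2, 886 and 522 in MYC-Off and 598, 1826 and 913 in MYC-On and overlapped. Its value of 1826 in MYC-On replicate 2 rests on 1 read of Arg2. Of the 7 ratios computed, that of Arg1 over Arg2 was the one whose groups overlapped.

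**Figure D3:**
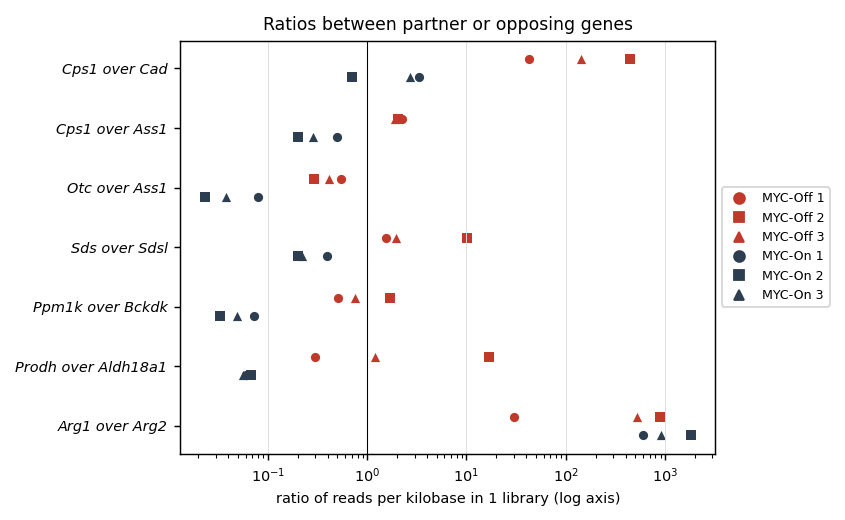
Ratio of reads per kilobase of exon between paired genes in each library (log axis), MYC-Off in red above MYC-On in dark blue. Of the 7 ratios 6 are higher in every MYC-Off library, and Arg1 over Arg2 overlaps.

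Among 16 regulators of hepatocyte genes, 8 rose (50%, beside 29.9% of all tested genes), with a median of 0.96. Ppargc1a, a coactivator of the fasting response, had 4.84, 13.9 and 5.61 CPM in MYC-Off, against 0.980, 0.164 and 0.345 CPM in MYC-On (log2 fold change 4.01, SE 0.80, edgeR adjusted p = 0.00598). Nr3c1, the glucocorticoid receptor, had 110.0, 133 and 102 CPM in MYC-Off, against 68.4, 51.3 and 63.9 CPM in MYC-On (log2 fold change 0.91, SE 0.22, edgeR adjusted p = 0.0118). Ppara, a nuclear receptor of the fasted liver, had 18.8, 88.0 and 41.4 CPM in MYC-Off, against 11.4, 8.80 and 13.3 CPM in MYC-On (log2 fold change 2.15, SE 0.54, edgeR adjusted p = 0.0138). These were above MYC-On in every MYC-Off library. Nr3c1 was not called with library size only (0.18), nor without MYC-On replicate 2 (0.75) or 3 (0.89), and Ppara was not called without MYC-On replicate 1 (2.11) or 2 (1.95).

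Markers of cell types moved with the groups as well. All 9 hepatocyte markers in the table rose, with summed levels of 112946, 187714 and 293062 CPM in MYC-Off and 9560.0, 4688 and 8514 CPM in MYC-On. Within MYC-Off these were highest in replicate 3, whereas the 48 genes were mostly highest in replicate 2. Of 10 macrophage markers 9 rose, with sums of 7639, 2930.4 and 1950.3 CPM in MYC-Off and 534, 651 and 1049 CPM in MYC-On, and Clec4f had 0 reads in MYC-Off replicate 3. Of 6 tested T, NK and B cell markers 5 rose, with sums over the 10 listed of 205, 23.2 and 5.30 CPM in MYC-Off and 3.25, 4.09 and 3.45 CPM in MYC-On. Both lists were highest in MYC-Off replicate 1, the library where 46 of the 48 genes were lowest within MYC-Off. Their part in the results was not tested.

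Tested endothelial markers rose in 6 of 7 cases, with sums of 659, 314 and 362 CPM in MYC-Off and 60.2, 56.3 and 62.4 CPM in MYC-On. Tested stellate and fibroblast markers rose in 7 of 7 cases, with sums of 2191, 1290.0 and 975 CPM in MYC-Off and 133, 143 and 144 CPM in MYC-On. Both of these lists were highest in MYC-Off replicate 1. Tested erythroid markers rose in 5 of 5 cases, with sums of 2297, 1648 and 684 CPM in MYC-Off and 90.9, 31.5 and 72.9 CPM in MYC-On. Tested neutrophil markers rose in 7 of 7 cases, with sums of 177, 154 and 253 CPM in MYC-Off and 2.94, 2.41 and 3.40 CPM in MYC-On. Of 5 tested cholangiocyte markers 2 rose and 1 fell, with sums of 257, 86.3 and 93.0 CPM in MYC-Off and 77.5, 44.2 and 104 CPM in MYC-On. Kidney markers summed to 2.14, 2.45 and 2.53 CPM in MYC-Off and 17.1, 5.44 and 3.55 CPM in MYC-On, and the one tested, Lrp2, fell. Pancreas markers summed to 17.0, 25.4 and 34.9 CPM in MYC-Off and 2.09, 2.41 and 4.24 CPM in MYC-On, where Cela1 alone was tested and rose, and Prss1 and Pnlip had 0 reads in all libraries. Their part in the results was not tested.

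Zonal markers of the hepatocyte split the MYC-Off libraries. Periportal markers, which include Hal, Sds and Gls2 from the 48, had summed levels of 1150.4, 4689 and 4032 CPM in MYC-Off and 737, 648 and 717 CPM in MYC-On, and 7 of 8 rose. Pericentral markers had 2215, 9529 and 779 CPM in MYC-Off and 357, 253 and 271 CPM in MYC-On, and 5 of 6 tested rose. In MYC-Off replicate 3 the pericentral gene Cyp2e1 stood at 2.15 CPM, Lgr5 and Axin2 had 0 reads, and the median of the list was -0.41 relative to the MYC-On mean. Of the 6 tested pericentral markers, 3 lay below the highest MYC-On library there, while the sum of the list lay above all MYC-On sums. Tdo2 was lowest of MYC-Off in replicate 3, at 7.53 CPM, and Ido2 was lowest in replicate 1, at 5.27 CPM. The urea cycle and histidine medians in replicate 3 were 1.41 and 3.64. The relation between zonal markers and these genes was not tested.

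Whichever library was left out, 17 of the 48 genes (35.4%) were called higher, beside 16.4% of all 14130 tested genes. Of these 17, Ido2 (edgeR adjusted p = 0.066) and Aass (0.0795) were not called when genes of low count were kept in the test. With replicate number as a block, Aass was not called either (edgeR adjusted p = 0.0596). DESeq2's test gave no adjusted p for Ido2. Both Ido2 and Acmsd had passed the filter on low counts only through their MYC-Off libraries. The 17 were Otc of the urea cycle, Tat, Hgd and Fah of tyrosine, Ido2, Afmid, Kmo and Acmsd of tryptophan, Hal, Uroc1 and Amdhd1 of histidine, Pcca and Pccb of propionate, Agxt and Agxt2 of glyoxylate, Gpt of alanine and Aass of lysine.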

How the data were processed

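The authors deposited a table of whole-number read counts per gene symbol, 1 column for each of 6 libraries and not normalized. Per the submitters' processing notes, Trimmomatic, STAR, Picard, featureCounts and DESeq2 were used with mm10. Sources used here do not give their versions, the annotation, the strand setting or the handling of multi-mapped reads. Rows with a date in place of a symbol (26) or a repeated symbol (4) were kept under a row number. Columns were matched to samples by their names, and groups and replicate numbers came from the titles.

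The contrast MYC-Off minus MYC-On was tested in edgeR 4.0.16 (R 4.3.3) on the 14130 genes that filterByExpr kept at a count of 10 and a total of 15. Scaling was by TMM, the quasi-likelihood fit was robust, and Benjamini-Hochberg adjusted p-values were called at 0.05. Each SE is the absolute log2 fold change divided by the square root of F. Library totals ran from 16292718 to 19265623 reads. Coordinates and exon lengths are from GENCODE M21 on GRCm38, which is mm10, and Mut was matched there as Mut or Mmut. The fit was tested on simulated data. Within groups, replicates differed by a chi-square per degree of freedom of at least 29.1.

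The members, lists and alternatives were chosen with earlier results of these data known. All 48 genes could be named. From each further list, the 3 genes with the smallest adjusted p in each direction are named, and an item that the rule would name is not reported here. Other settings tried were scaling by DESeq2 size factors or by library size only, a filter of 1 CPM in 3 libraries or none, the test of DESeq2 1.42.0, a replicate block, and each library left out. Figures were drawn with matplotlib 3.10.9.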

Additional observations from a re-analysis of the deposited data

How the results depend on the processing

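The number of the 48 genes called higher (29) was between 23 and 30 with DESeq2 size factors, library size only, no filter, the stricter filter and DESeq2's test, and between 17 and 38 when a library was left out. The number lower (1) was 3 with library size only and between 0 and 1 without a library. For the other breakdown enzymes the number higher (13) was between 7 and 19 without a library. Over all tested genes 2527 were higher and 5300 lower with library size only, and between 2776 and 4317 were higher without a library. Fold changes that changed sign were all of genes not called. With library size only these were Ass1 (-0.10), Slc25a13 (-0.33), Dbt (-0.21), Ivd (-0.33), Acad8 (-0.69), Sdsl (-0.25), Prodh2 (-0.39) and Got1 (-0.18). When a library was left out, values ran from -0.30 to 1.07 for Ass1, -0.081 to 0.71 for Slc25a13, -0.22 to 0.22 for Acad8, -0.73 to 0.94 for Sdsl, -0.092 to 2.09 for Prodh and -0.015 to 0.83 for Got1. The cause was not tested. With no filter on low counts, Arg1, Tdo2, Ido2, Sds, Gls2 and Aass lost their calls.

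Replicate numbers are shared by the groups in the titles. Same-numbered libraries did not deviate together (correlations of -0.26, -0.17 and 0.04). Deviations from means of 3 libraries cannot decide whether the numbers pair the samples. With a replicate block 17 of the 48 genes, 8 of the other breakdown enzymes and 3152 of all genes were called higher, against 29, 13 and 4222 without it. With 3 libraries in each group, intervals are wide and a gene that misses the threshold may still differ.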
